A study of Arabidopsis thaliana with 12 samples.

Results

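The comparison described here is that of pad4 mutant shoots with shoots of the wild-type accession Col-0. The labels name no added pathogen or elicitor, so the comparison reads how these genotypes differ without a named challenge. It takes 6 of the 12 libraries of the study, 3 per genotype, and all 33331 genes of the count table, of which 15082 had enough counts to be tested. Every library came from whole shoots of Arabidopsis thaliana aged 2 weeks, held at 22 °C and 50% humidity with 100 µmol m-2 s-1 of light that was never switched off. The other 6 libraries are of aig2abc, which carries mutations in AIG2A, AIG2B and AIG2C, and of aig2abc pad4, which carries both, and they are used below to ask whether loss of PAD4 had the same effect in another background. The labels do not give the pad4 allele or say whether replicates were separate pots or harvests, so the p-values cover only the spread among these libraries, which may be technical. The assay was 3′ RNA sequencing, which counts each transcript near its end.

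PAD4 is a lipase-like protein that binds EDS1, and the pair signals with the helper receptors of the ADR1 family downstream of immune receptors with a TIR domain. Its best known output in Arabidopsis leaves is the build-up of salicylic acid through isochorismate synthase, which lets the receptor NPR1 and TGA factors switch on the pathogenesis-related (PR) genes. The same module also drives synthesis of N-hydroxypipecolic acid, the mobile signal of systemic resistance, and plants lacking PAD4 are known for heightened susceptibility to biotrophic pathogens.

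Total counts ran from 6561011 to 9742035 in Col-0 and from 7991739 to 10697612 in pad4, against 584342 to 3005199 in aig2abc and 5542138 to 8330632 in aig2abc pad4. Levels are CPM, counts scaled to the size of the library, which was set by the trimmed mean of M-values (TMM), and SDs are over 3 libraries. Col-0 replicate 1 stood apart from the other Col-0 libraries, with a chi-square per gene of 37.9 and 50.7 against them and 7.18 between those 2. The evening clock gene ELF4, for example, had 23.2 CPM in that library and 5.9 and 5.09 CPM in the others. Counts of called genes are therefore also given without Col-0 replicate 1. The pad4 libraries differed from each other as well, with a chi-square per gene of 36.1, 45.6 and 27.5 for their pairs. None of 52 marker genes of root, flower, shoot meristem, dividing cells, guard cell, trichome, phloem and xylem passed the test. Only 23 of them were tested, too few to expect a call at the 0.69% called over all tested genes. Of the 12 root markers, 11 fell under the count filter.

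PAD4 itself was the first check of the labels. It had 17.1, 27.2 and 35.2 CPM in the Col-0 libraries and 2.68, 3.45 and 2.93 CPM in the pad4 libraries. The groups did not overlap, and PAD4 transcript fell by 3.13 ± 0.31 (SE) on the log2 scale, an 8.76-fold difference (adjusted p = 2.09e-05, edgeR quasi-likelihood test with Benjamini-Hochberg adjustment, as for every adjusted p here unless another is named). The transcript was low rather than absent, with 83 counts over the 3 pad4 libraries. In bulk shoots, fewer cells that express a gene and less RNA in each of them cannot be told apart, here and for every gene below.

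Most of the genes called between pad4 and Col-0 were lower in pad4. Of 15082 genes tested, 103 were lower in pad4 (0.683%) and 1 was higher (0.00663%) at an adjusted p under 0.05, 0.69% in all. At an unadjusted p under 0.05, 662 genes were lower and 274 higher. All 104 had no overlap between the 3 pad4 and the 3 Col-0 libraries, a pattern seen in 10.7% of all tested genes and, with pad4 lower, in 6.37%. The falls of the 103 were deep, with a median log2 change of -2.85, from -1.17 to -8.38. Of them, 74 fell at least 4-fold, 46 at least 8-fold and 20 at least 16-fold, while the median over all tested genes was -0.01. Calling itself favours deep changes: in simulated data the test found 9 of 100 changes of 2-fold and 83 of 100 of 4-fold. Without Col-0 replicate 1 the counts were 106 lower and 0 higher, and 87 of the 106 were among the 103. Without pad4 replicate 3 they were 66 lower and 1 higher, and all 66 were among the 103. Same-numbered Col-0 and pad4 libraries deviated together, more so for numbers 1 and 3 than for number 2. With the replicate number as a block, 132 genes were lower and 8 higher in all 12 libraries. The counts were 161 and 15 in the 9 libraries outside aig2abc, and 232 and 74 in only the 6 Col-0 and pad4 libraries. The share of higher genes therefore depended on the fit.

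**Figure D1:**
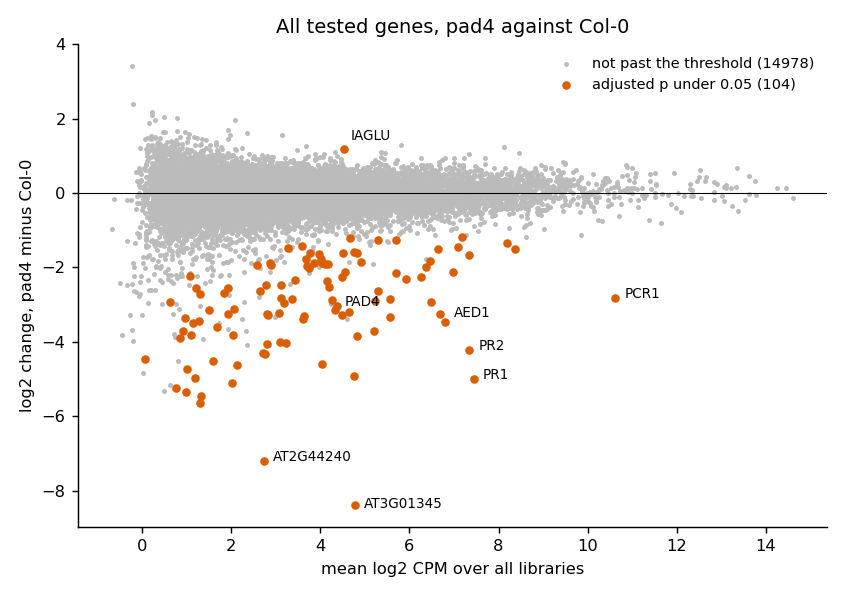
Log2 change of pad4 minus Col-0 (vertical axis) against the mean log2 CPM over all libraries (horizontal axis), 1 point per tested gene, with the 104 genes past an adjusted p of 0.05 in orange. The called genes lie below 0 with the exception of IAGLU, from weakly expressed genes up to PCR1, and AT3G01345 lies lowest at -8.38.

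Salicylic acid output genes made up the most strongly lowered list. Of its 10 members 8 were tested, 7 fell and none rose, with a median log2 change of -3.65 beside a background of 0.683% lower and a median of -0.01 over all tested genes. Without Col-0 replicate 1, 6 of them passed. PR1, the usual marker of salicylic acid signalling, had 98.1, 142 and 224 CPM in Col-0 and 5.54, 5.52 and 3.51 CPM in pad4. Its lowest Col-0 library was far above its highest pad4 library, and the fall was 4.99 ± 0.39 on the log2 scale, or 31.7-fold (adjusted p = 2.29e-06).

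PR2, a secreted beta-1,3-glucanase that attacks fungal wall glucan, had 103, 160 and 355 CPM in Col-0 and 10.7, 12.9 and 9.71 CPM in pad4. PR5, a thaumatin-like protein, had 62.3, 93.4 and 206 CPM in Col-0 and 14.6, 11.8 and 11.4 CPM in pad4. For both genes the Col-0 libraries spread over more than a 3-fold range while the pad4 libraries were close to each other and lower than all of them. PR2 fell by 4.21 ± 0.38 and PR5 by 3.26 ± 0.39 on the log2 scale (adjusted p = 1.25e-05 and 0.000137).

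The secreted peptide gene PNP-A, plant natriuretic peptide A, had 13.1, 11.1 and 18.9 CPM in Col-0 and 0.956, 1.26 and 0.351 CPM in pad4, a fall of 4.04 ± 0.41 on the log2 scale (adjusted p = 2.62e-05). AIG1, a GTP-binding protein gene first found through its induction by the bacterial effector AvrRpt2, had 1.55, 2.7 and 4.99 CPM in Col-0 and 0, 0.115 and 0.117 CPM in pad4. With 80 counts over the Col-0 libraries and 2 over the pad4 libraries, its ratio was 44.4 (95% counting interval 11.9 to 373, exact Clopper-Pearson, counting error only; adjusted p = 0.000881). Of the called output genes, AIG1 was the one closest to 0 in pad4.

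The glucanase BG3, which lies beside PR2 on chromosome 3, fell by 1.93 ± 0.38 on the log2 scale from 3.69 ± 0.883 to 0.95 ± 0.448 CPM (adjusted p = 0.0145). The glutaredoxin GRXS13 fell by 2.56 ± 0.57 from 3.25 ± 0.916 to 0.511 ± 0.389 CPM (adjusted p = 0.0441). Both calls were narrow. BG3 did not pass without Col-0 replicate 3 (adjusted p = 0.115), pad4 replicate 2 (0.094) or pad4 replicate 3 (0.0625), and GRXS13 did not pass without Col-0 replicate 1 (0.0997), Col-0 replicate 2 (0.132), pad4 replicate 2 (0.246) or pad4 replicate 3 (0.275). The tested member that did not pass was LURP1, named for its late upregulation during infection by Hyaloperonospora, which went from 88.4 ± 18.1 to 57.5 ± 11.8 CPM (log2 change -0.62 ± 0.25, adjusted p = 0.69). PRB1 and GRX480 had 2 counts or fewer over the 6 libraries and were not tested.

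**Figure D2:**
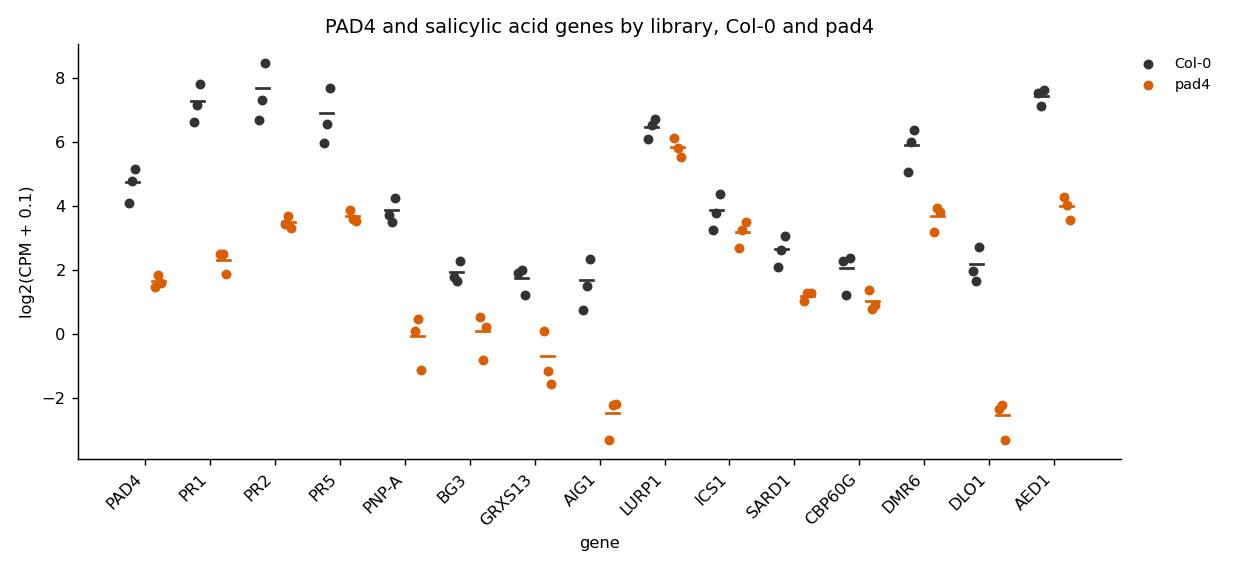
Expression of PAD4 and 14 salicylic acid and systemic resistance genes in each Col-0 (black) and pad4 (orange) library as log2(CPM + 0.1), with a bar at the mean of 3 libraries. The output genes PR1, PR2, PR5, PNP-A and AIG1, and DLO1 and AED1, separate by wide gaps, while ICS1 and LURP1 overlap.

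No gene that makes salicylic acid was called, though the test would mostly miss a change near 2-fold. None of the 14 members of the synthesis list passed the test, and their median log2 change was -0.31. ICS1, isochorismate synthase, had 9.33, 13.7 and 20.7 CPM in Col-0 and 6.31, 9.42 and 11.1 CPM in pad4. The groups overlapped, at a log2 change of -0.71 ± 0.34 (adjusted p = 0.825). With each library's score on the main axis of replicate differences as a covariate, ICS1 passed (log2 change -0.90, adjusted p = 0.024). Its activator SARD1 had 4.11, 6.07 and 8.18 CPM in Col-0 and 1.91, 2.3 and 2.34 CPM in pad4. The groups did not overlap, but the log2 change of -1.49 ± 0.40 did not pass (adjusted p = 0.154), and over 19 other settings its adjusted p ran from 0.00584 to 1, with a pass in 5 of them. A second activator, CBP60G, had 4.77, 2.19 and 5.09 CPM in Col-0 and 2.48, 1.61 and 1.76 CPM in pad4 (log2 change -1.05 ± 0.36, adjusted p = 0.468).

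The remaining synthesis genes were not called either. EDS5, the chloroplast exporter of isochorismate, had a log2 change of -0.81 ± 0.46, PBS3, which conjugates glutamate to isochorismate, -1.28 ± 0.97, and EPS1, which releases salicylic acid from that conjugate, -0.14 ± 0.39. The second isochorismate synthase gene, ICS2, was at 0.64 ± 0.45, and the phenylalanine ammonia-lyase genes PAL1, PAL2, PAL3 and PAL4 were at 0.48 ± 0.26, 0.30 ± 0.23, 0.39 ± 0.45 and 0.08 ± 0.53. TGA1, TGA4 and CAMTA3, transcription factors that tune SARD1 and CBP60G, were at -0.47 ± 0.40, -0.61 ± 0.66 and -0.10 ± 0.48. No adjusted p among these 11 genes was under 0.05.

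PAD4's own partners were not called either. In the list of the EDS1-PAD4 node and helper receptors, PAD4 was the only call among 9 tested members, and the list median was -0.52. EDS1 had 3.11, 4.72 and 9.38 CPM in Col-0 and 4.68, 3.22 and 4.21 CPM in pad4, which overlapped (log2 change -0.52 ± 0.41, adjusted p = 0.895). Reads of EDS1 and its near-identical tandem copy AT3G48080, at 0.04 ± 0.62, may have been split between the 2 genes, so both values are uncertain. SAG101, the other lipase-like partner of EDS1, was at -0.25 ± 0.31. Among the helper receptors, ADR1 was at -0.61 ± 0.33, ADR1-L1 at -0.79 ± 0.31 and ADR1-L2 at -0.54 ± 0.58, and the CC-NBS-LRR genes AT5G66900 and AT5G66910 at 0.07 ± 0.39 and -0.18 ± 0.47. AT5G66890 had 0 counts in all 12 libraries. None of 16 tested TIR-type receptor genes passed, with a median of -0.07, and the members with the smallest p were RPP4, a receptor for downy mildew (-0.80 ± 0.25, adjusted p = 0.298), and the TIR gene AT1G47370 (-0.67 ± 0.45, adjusted p = 0.887).

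Of the salicylic acid receptors and their partners, 1 of 9 tested members fell and the median was -0.44. It was NIMIN2, which encodes a small protein that binds NPR1. NIMIN2 had 9.77, 6.24 and 6.09 CPM in Col-0 and 2.39, 2.18 and 1.17 CPM in pad4, a fall of 1.93 ± 0.36 on the log2 scale (adjusted p = 0.0109). The call did not hold without Col-0 replicate 1 (adjusted p = 0.0598) or pad4 replicate 3 (0.085).

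Both hydroxylases that inactivate salicylic acid were lowered with the output genes. In the turnover list 2 of 4 tested members fell, with a median of -1.76. DMR6, a salicylic acid 5-hydroxylase gene whose loss gives downy mildew resistance, had 33.2, 63.9 and 83.6 CPM in Col-0 and 8.98, 15.2 and 13.8 CPM in pad4 (fall of 2.25 ± 0.33 on the log2 scale, adjusted p = 0.00096). DLO1, a salicylic acid 3-hydroxylase gene, had 3.77, 3.04 and 6.49 CPM in Col-0 and 0.0956, 0.115 and 0 CPM in pad4. Its 117 counts against 2 gave a ratio of 65.0 (95% counting interval 17.6 to 543; adjusted p = 0.000134).

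In the list of N-hydroxypipecolic acid and systemic resistance genes, 1 of 8 tested members fell, all 8 had a log2 change below 0 and the median was -1.03. The called gene was AED1, an apoplastic aspartyl protease gene. AED1 had 185, 140 and 199 CPM in Col-0 and 19.3, 16.2 and 11.6 CPM in pad4, so the groups were separated by a wide margin and the fall was 3.47 ± 0.32 on the log2 scale (adjusted p = 1.25e-05).

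The synthesis genes of the mobile signal were near the detection limit. ALD1, the aminotransferase of the first step of pipecolic acid synthesis, had 11, 5 and 22 counts in the Col-0 libraries and 0 in each pad4 library. That is at least a 14.1-fold difference with 3 counts per group taken as the floor, and ALD1 missed the count filter; in the fit without a filter it passed (adjusted p = 0.000159). FMO1, the enzyme of the last step, had 4, 0 and 2 counts in Col-0 and 0 in each pad4 library, at least a 2.22-fold difference that did not pass in that fit (adjusted p = 0.764). The NAD(P)-binding Rossmann-fold gene AT5G52810 had a log2 change of -1.01 ± 0.32 (adjusted p = 0.306), and UGT76B1, a glycosyltransferase that acts on salicylic and N-hydroxypipecolic acid, had -2.37 ± 0.58 (adjusted p = 0.0908). UGT76B1 had 0.777, 1.18 and 3.69 CPM in Col-0 and 0.382, 0.23 and 0.468 CPM in pad4. The lipid-transfer genes AZI1, EARLI1, AT4G12490 and DIR1, known or related to carriers of systemic signals, were at -1.16 ± 0.47, -1.05 ± 0.41, -0.81 ± 0.36 and -0.56 ± 0.31, and the lectin gene AT5G03350 at -0.28 ± 0.30, none of them past the threshold.

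Among WRKY transcription factor genes of defence, 2 of 20 tested members fell and the median was -0.51. WRKY50 had 4.33, 12.1 and 10.08 CPM in Col-0 and 1.53, 1.03 and 1.05 CPM in pad4 (fall of 2.83 ± 0.43 on the log2 scale, adjusted p = 0.00138). Its close relative WRKY51, which acts with it in the salicylic acid branch that restrains jasmonate signalling, had 2.33, 0.675 and 1.8 CPM in Col-0 and 0.0956, 0.115 and 0.234 CPM in pad4 (fall of 3.35 ± 0.64, adjusted p = 0.0116). WRKY51 did not pass without Col-0 replicate 1, Col-0 replicate 3, pad4 replicate 1 or pad4 replicate 2, with adjusted p up to 0.0859.

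Because these genes fell together, the 300 bases before their annotated starts were searched on both strands for the W-box letters TTGACC and TTGACT, bound by WRKY factors, and for TGACG, the core bound by TGA factors. TGACG on both strands can overlap as TGACGTCA. Shown are NIMIN2, DLO1 and WRKY51, which hold that overlap, and CRK37, a receptor-like kinase gene described below that holds both kinds of motif. Capitals mark the motifs. The sequences are from RefSeq, build TAIR10.1, in the direction of transcription, at chr3:9471040-9471339 (minus strand) for NIMIN2, chr4:6490717-6491016 (plus) for DLO1, chr5:25907947-25908246 (plus) for WRKY51 and chr4:2238070-2238369 (plus) for CRK37.
NIMIN2: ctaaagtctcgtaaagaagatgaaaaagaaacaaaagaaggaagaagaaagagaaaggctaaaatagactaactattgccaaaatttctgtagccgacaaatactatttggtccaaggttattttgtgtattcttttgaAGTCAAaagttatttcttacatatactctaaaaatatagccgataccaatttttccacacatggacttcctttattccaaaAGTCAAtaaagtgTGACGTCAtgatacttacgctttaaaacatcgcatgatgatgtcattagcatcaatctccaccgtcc
DLO1: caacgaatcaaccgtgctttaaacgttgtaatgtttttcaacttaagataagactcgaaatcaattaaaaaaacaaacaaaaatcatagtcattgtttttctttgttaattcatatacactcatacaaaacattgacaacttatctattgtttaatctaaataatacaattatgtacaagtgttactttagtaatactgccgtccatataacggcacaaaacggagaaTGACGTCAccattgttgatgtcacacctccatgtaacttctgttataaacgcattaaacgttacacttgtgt
WRKY51: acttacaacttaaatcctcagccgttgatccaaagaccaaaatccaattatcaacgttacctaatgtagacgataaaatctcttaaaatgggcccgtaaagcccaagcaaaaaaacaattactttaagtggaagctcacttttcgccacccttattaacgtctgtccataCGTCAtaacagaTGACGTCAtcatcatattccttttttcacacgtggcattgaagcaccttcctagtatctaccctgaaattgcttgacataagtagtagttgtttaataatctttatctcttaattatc
CRK37: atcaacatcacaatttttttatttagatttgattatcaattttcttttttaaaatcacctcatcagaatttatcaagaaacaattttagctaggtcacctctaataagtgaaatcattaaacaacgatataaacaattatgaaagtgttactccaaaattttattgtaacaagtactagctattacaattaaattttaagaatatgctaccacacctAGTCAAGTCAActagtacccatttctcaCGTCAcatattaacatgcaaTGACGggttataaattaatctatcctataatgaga

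In NIMIN2 the overlapping pair began 67 bases before the annotated start, with a W-box 80 bases before it, and in DLO1 the pair began 72 bases before the start. In WRKY51 it began 118 bases before the start. Over all genes, a W-box was found in 46.1% of the promoters of the 102 lower genes that could be placed on the annotation and in 31.3% of 15031 tested genes with a promoter read. For TGACG the shares were 34.3% and 22.0%, and for TGACGTCA 4.9% and 0.639%, or 5 and 96 promoters. The other 2 lower genes with TGACGTCA were ARD3, an acireductone dioxygenase gene, and the VQ motif gene AT1G78410. The called output genes differed from this: 1 of 7 held a W-box and 4 held TGACG, and no match to either was found in these 300 bases of PR1. TGACGTCA was not among the motifs planned for the search, and NIMIN2, DLO1 and WRKY51 were shown because they hold it. These shares are descriptions of letters in a short window, not of binding.

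Cell-surface receptor genes were lowered in part. In the list of pattern receptors and early signalling, 1 of 21 tested members fell and the median was -0.18. RLP23, the receptor for the nlp20 peptide of microbial toxins, had 26.9, 43.5 and 64.2 CPM in Col-0 and 5.92, 4.37 and 8.54 CPM in pad4 (fall of 2.84 ± 0.35 on the log2 scale, adjusted p = 0.000175). Of the cysteine-rich receptor-like kinases, 5 of 21 tested members fell, none rose and the median was -0.58.

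CRK4 had 5.11, 6.75 and 5.49 CPM in Col-0 and 0.573, 0.345 and 1.05 CPM in pad4, a fall of 3.11 ± 0.46 on the log2 scale (adjusted p = 0.00113). CRK6 had 3.11, 4.39 and 5.59 CPM in Col-0 and 0.0956, 0.115 and 0.702 CPM in pad4, a fall of 3.82 ± 0.58 (adjusted p = 0.00137). CRK7, the next gene along chromosome 4, had 59 counts over Col-0 and 2 over pad4, a ratio of 32.8 (95% counting interval 8.68 to 277; adjusted p = 0.00137). For CRK37 the counts were 60 and 1, a ratio of 66.6 with a wide interval of 11.5 to 2675 (adjusted p = 0.00142). In each of these 4 kinases every pad4 library lay below every Col-0 library. CRK45, the fifth, is named after its value was seen: it fell by 2.64 ± 0.52 from 20.9 ± 17 to 3.38 ± 1.14 CPM (adjusted p = 0.0169). In the fit of only the 6 Col-0 and pad4 libraries, 3 of the kinases passed. CRK37 missed the count filter in that fit and was not tested in it.

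Defence metabolism and senescence gave a few further calls. In camalexin synthesis all 8 members were tested, 1 fell, all 8 log2 changes were below 0 and the median was -1.50. The called gene was GSTU4, a glutathione S-transferase, which had 4, 3.2 and 4.89 CPM in Col-0 and 0.669, 1.26 and 2.11 CPM in pad4. It fell by 1.61 ± 0.36 on the log2 scale (adjusted p = 0.0456), and leaving out any one of the Col-0 libraries or pad4 replicate 1 or 2 ended the call, with adjusted p up to 0.257. Of 11 tested senescence genes 3 fell, with a median of -0.62: SAG13, a short-chain dehydrogenase gene, SAG14, a blue copper protein gene, and SAG21, a late-embryogenesis-abundant protein gene.

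SAG21 had 119, 106 and 107 CPM in Col-0 and 41.3, 38.6 and 24 CPM in pad4 (fall of 1.68 ± 0.25 on the log2 scale, adjusted p = 0.00137). SAG13 had 15.3, 17.2 and 34.8 CPM in Col-0 and 5.35, 4.14 and 4.1 CPM in pad4 (fall of 2.31 ± 0.34, adjusted p = 0.00124). SAG14 had 20.9, 21.9 and 22.1 CPM in Col-0 and 8.6, 7.7 and 5.27 CPM in pad4 (fall of 1.58 ± 0.29, adjusted p = 0.00857), a call that did not hold without pad4 replicate 3 (adjusted p = 0.075). The chlorophyll breakdown genes of this list, NYE1, PPH and PAO, named after their values were seen, lay at -0.06 ± 0.28, -0.06 ± 0.25 and -0.19 ± 0.38.

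In the jasmonate list, 1 of 25 tested members fell and the median was -0.02. TAT3, a tyrosine aminotransferase gene induced by wounding, had 6.66, 8.77 and 12.9 CPM in Col-0 and 1.43, 1.61 and 2.11 CPM in pad4 (fall of 2.46 ± 0.37 on the log2 scale, adjusted p = 0.00137). None of 13 tested genes of the ethylene and jasmonate defensin branch passed (median -0.53). Its members with the smallest p were the defensin-like PDF1.4 (-2.11 ± 0.61, adjusted p = 0.22) and PR4, a chitin-binding protein gene (-1.14 ± 0.43, adjusted p = 0.609).

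Growth, photosynthesis and glucosinolate genes gave no call. At the 0.69% called over all tested genes, lists this short would be expected to give few or none. None of 28 photosynthesis genes of the nucleus passed, the median log2 change was 0.17, and together they took 132031 to 167106 CPM in Col-0 and 140651 to 191467 CPM in pad4. The light-harvesting gene LHCB1.3 was at -0.41 ± 0.29 and PRK, phosphoribulokinase of the Calvin cycle, at 0.56 ± 0.24. None of 14 growth genes passed (median -0.14), with SAUR22 at -0.43 ± 0.33 and the expansin EXPA8 at -0.54 ± 0.38. None of 19 indole glucosinolate genes (median -0.24) and none of 17 aliphatic glucosinolate genes (median 0.28) passed. CYP83B1 and GSTF10 of the indole pathway were at -0.65 ± 0.26 and -0.52 ± 0.25, and MYB28 and MAM3 of the aliphatic pathway at 0.51 ± 0.26 and -0.80 ± 0.48.

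None of 12 clock genes (median 0.03), 12 abscisic acid and cold genes (median -0.16) or 17 genes of endoplasmic reticulum folding (median -0.24) passed. These lists too were short beside the 0.69% called over all tested genes. ELF4 and LUX, evening clock genes, were at -1.44 ± 0.45 and -1.25 ± 0.39 (adjusted p = 0.3 and 0.319), and both were highest in Col-0 replicate 1. RD29B and the dehydrin LTI30 were at -2.39 ± 0.99 and -0.42 ± 0.34. The chaperone BIP3 and the calreticulin CRT3, which folds the receptor EFR, had no overlap between groups but adjusted p of 0.111 and 0.149, at -2.52 ± 0.64 and -0.96 ± 0.26. AIG2A, AIG2B and AIG2C, the genes mutated in the other background, were not called: AIG2A had 73.2, 64.3 and 62.6 CPM in Col-0 and 50.5, 50.2 and 46.8 CPM in pad4 (log2 change -0.44 ± 0.22, adjusted p = 0.837), and AIG2B and AIG2C were at 0.36 ± 0.43 and -0.22 ± 0.28.

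**Figure D3:**
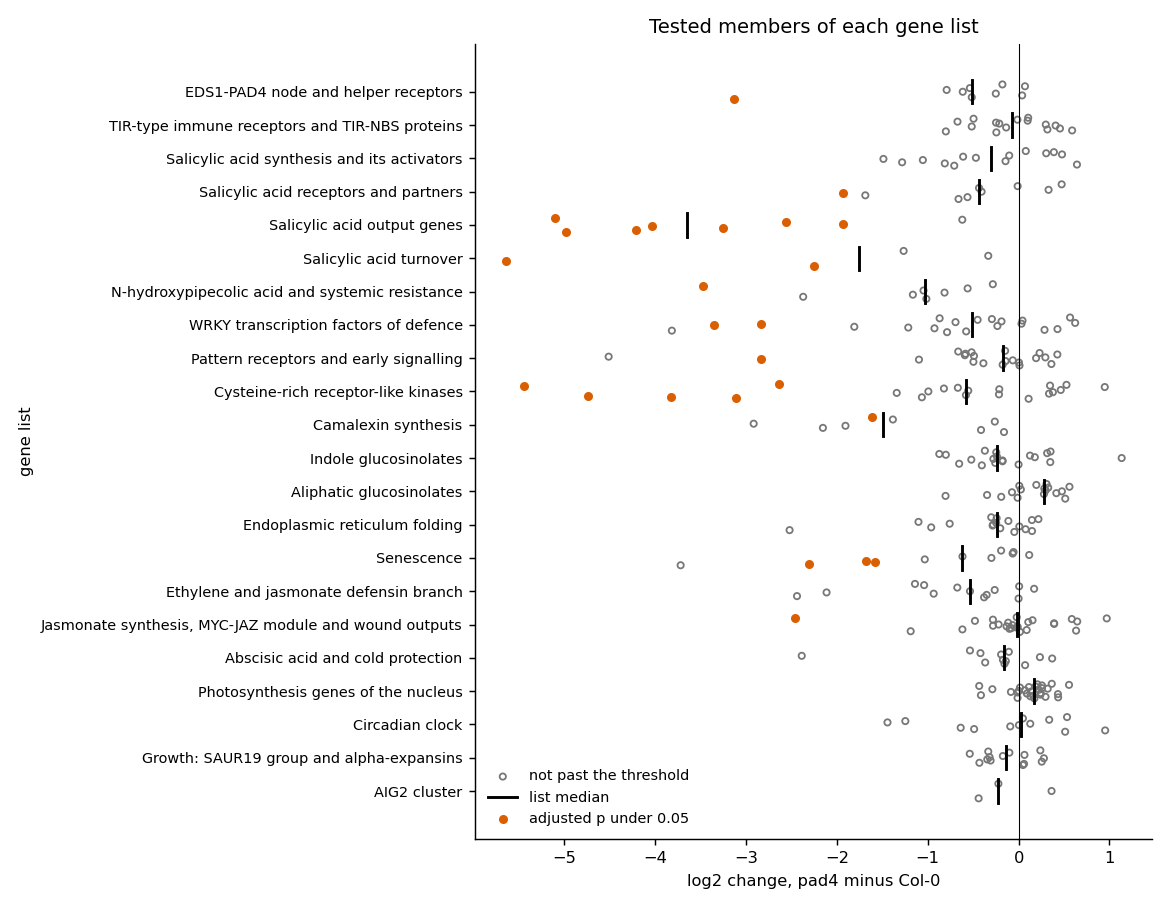
Log2 change of pad4 minus Col-0 for each tested member of the 22 gene lists, with called genes in orange, other genes as open circles and a bar at each list's median. The salicylic acid output list has its median at -3.65, while the photosynthesis, growth, clock and glucosinolate lists cluster around 0 with no call.

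The lists held 25 of the 103 lowered genes, so 78 lay outside them. By the largest changes among genes at a mean log2 CPM of at least 1, AT3G01345 led, followed by AT2G44240. AT2G44240, a NEP-interacting protein gene by its RefSeq description, had 8.1, 3.88 and 11.5 CPM in Col-0 and 0.0956, 0 and 0 CPM in pad4. Its 211 counts against 1 gave a ratio of 234 (95% counting interval 41.6 to 9299; adjusted p = 4.98e-05).

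CML41, a calmodulin-like protein gene, had 11.5, 17.2 and 30.3 CPM in Col-0 and 1.05, 0.23 and 0.585 CPM in pad4 (fall of 4.91 ± 0.47 on the log2 scale, adjusted p = 1.65e-05). AT4G00700, a C2 calcium and lipid-binding protein gene, had 3.66, 10.3 and 18.6 CPM in Col-0 and 0.287, 0.575 and 0.468 CPM in pad4 (fall of 4.59 ± 0.57, adjusted p = 0.000187). AT3G15536, which has no RefSeq product, fell by 4.62 ± 0.52 from 7.5 ± 2.51 to 0.29 ± 0.176 CPM (adjusted p = 7.02e-05). GSTU10, a glutathione S-transferase gene, had 14 counts over Col-0 and 0 over pad4, at least a 5.18-fold difference (adjusted p = 0.0371). Its call ended without any one of 5 of the 6 libraries. GSTU10 missed the count filter in the fits of only the 6 Col-0 and pad4 libraries. It was therefore tested, and reached its mean log2 CPM of 1.19 over all 12 libraries, through the other genotypes.

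Grouping the called genes by the words of their RefSeq products, a step taken after their values were seen, gave 6 of 36 tested EF-hand or calmodulin-like genes, 4 of 33 genes described as lipid-transfer proteins, 2 of 13 chitinase genes and 2 of 32 glutathione S-transferase genes, against 0.683% of all tested genes. None of 303 ribosomal protein genes and none of 51 photosystem genes fell. Among the EF-hand genes, AT2G41410 was abundant, with 256, 288 and 298 CPM in Col-0 and 98.8, 128 and 108 CPM in pad4 (fall of 1.33 ± 0.25 on the log2 scale, adjusted p = 0.0113). Other falls that stood out after their values were seen were CAX3, a vacuolar calcium exchanger gene (25.4 ± 8.98 to 2.6 ± 0.754 CPM), TRX5, a thioredoxin gene whose product acts on NPR1 (92.9 ± 19.6 to 23.6 ± 2.99 CPM), and EXT3, a cell wall extensin gene (32.4 ± 0.716 to 9.17 ± 1.98 CPM). PCR1, of the plant cadmium resistance family, was the most abundant of the called genes at 696, 1339 and 1788 CPM in Col-0 and 140, 241 and 159 CPM in pad4 (fall of 2.82 ± 0.37, adjusted p = 0.000307).

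The 1 gene that rose was IAGLU, which glucosylates the auxin indole-3-acetic acid. IAGLU had 11, 14.3 and 15.1 CPM in Col-0 and 31.1, 30.3 and 30.5 CPM in pad4. The pad4 libraries were nearly equal and all above Col-0, for a rise of 1.19 ± 0.22 on the log2 scale, or 2.28-fold (adjusted p = 0.0101). It did not pass without Col-0 replicate 1 (adjusted p = 0.0633) or Col-0 replicate 2 (0.0512), or in the fit of only the 6 libraries (0.0715).

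The lowered genes lay on all 5 chromosomes, from 12 on chromosome 4 to 26 on chromosome 1. Chromosome 4 held 11.7% of them and 15.2% of all tested genes, and chromosome 1 held 25.2% and 26.3%. Of the 102 placed on the annotation, 26 had another lowered gene within 5 tested genes, among them PR2 with BG3, CRK6 with CRK7, PCR1 with PCR2 and the lipid-transfer genes AT5G55450 and AT5G55460. Within 50 tested genes of PAD4 there was 1 other lowered gene, CAX3. Neighbours were not counted for other tested genes, so these counts describe positions and do not show clustering.

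Col-0 libraries varied in these genes in a partly shared pattern. PAD4, PR1, PR2, PR5, DMR6 and SARD1 were all lowest in Col-0 replicate 1 and highest in Col-0 replicate 3. Others differed: PNP-A, AED1 and DLO1 were lowest in replicate 2, and NIMIN2 was highest in replicate 1 and lowest in replicate 3. Of the 103 lowered genes, 56 were lowest in Col-0 replicate 1, 34 in replicate 2 and 13 in replicate 3, and 66 were highest in replicate 3. The same counts were not taken over all tested genes. The order of PAD4, with replicate 2 in between, was shared by 45 of the 103 (43.7%, PAD4 included) and by 19.98% of all tested genes. The part that the library difference described above has in this was not tested.

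The same loss of PAD4 was measured in the aig2abc background, in libraries that share none with the comparison above. There, aig2abc pad4 against aig2abc gave 1737 lower (11.5%) and 1924 higher genes (12.8%). These counts rested on single libraries: aig2abc pad4 replicate 3 stood apart from its group, with a chi-square per gene of 57.7 and 40.6 against the others and 3.39 between those 2, and without it the counts were 2709 and 2794. Without one of the other 5 libraries of this background they ran from 455 to 1069 lower and from 921 to 1216 higher. With each library's score on the main axis of replicate differences as a covariate they were 128 and 197. On that axis the aig2abc libraries scored -97.9, -108 and -85, outside the range of the other libraries, -63.6 to 59.8. The covariate thus runs partly with genotype, and fits with it cannot separate the axis from genotype. Of the 103 genes lower in pad4, 48 were lower there too, 3 were higher and 79 had a log2 change below 0, with a median of -0.83 beside 0.08 over all tested genes. The 48 became 26 without aig2abc replicate 1, 32 and 33 without aig2abc pad4 replicates 2 and 1, and 19 with the covariate. PAD4 itself fell in both backgrounds, by 3.13 ± 0.31 and by 3.00 on the log2 scale, with a difference of 0.13 (adjusted p = 0.85).

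For many of the 103 the fall in the aig2abc background was smaller. The difference between the backgrounds passed for 57 of them, each time above 0, and did not for 46. It passed above 0 in 8.53% and below 0 in 6.23% of all tested genes. Since the 103 were called on the Col-0 and pad4 libraries that also enter this difference, the 57 describe the genes and carry no test of the set. The 57 became 34 to 40 without any one of the libraries of the aig2abc background other than aig2abc pad4 replicate 3, 64 without that one, 35 without pad4 replicate 3 and 31 with the covariate.

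PR1 showed the gap plainly, with 259, 263 and 136 CPM in aig2abc pad4 and 358, 253 and 355 CPM in aig2abc. Each aig2abc pad4 library was above the lowest Col-0 library and every pad4 library was below it, and the difference of the 2 log2 changes was 4.43 (adjusted p = 0.00041). For DLO1 the levels were 2.18 ± 0.697 CPM in aig2abc and 2.03 ± 0.983 CPM with PAD4 lost as well, for a difference of 5.48 (adjusted p = 0.0091). CML41 was at 57.7 ± 18.5 CPM in aig2abc and 33.1 ± 4.95 CPM with PAD4 lost as well, for a difference of 4.05 (adjusted p = 0.0052).

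Other genes fell in both backgrounds with no difference past the threshold. DMR6 had 234, 152 and 162 CPM in aig2abc but 52.9, 58.6 and 59.2 CPM in aig2abc pad4, with a log2 change of -1.69 (adjusted p = 0.0032) and a difference of 0.56 (adjusted p = 0.38). AIG1, CRK37, CRK6, WRKY50 and RLP23 were also lower in both, with differences of 1.65, 1.96, 1.57, 1.44 and 1.33 (adjusted p from 0.0606 to 0.223). Their falls were thus not shown to be equal. The RLP23 difference passed in some other settings, with adjusted p of 0.0287 in DESeq2 and 0.0326 with the covariate. That of CRK6 passed with the replicate block by title number (adjusted p = 0.0319). That of WRKY50 passed with no filter on low counts (adjusted p = 0.0446) and without Col-0 replicate 1 (0.0454). In the aig2abc background WRKY50 did not pass without aig2abc replicate 1 (adjusted p = 0.267), aig2abc pad4 replicate 1 (0.0865) or aig2abc pad4 replicate 2 (0.0637), and RLP23 not without aig2abc replicate 1 (0.0505). With the covariate DMR6, CRK37, CRK6, WRKY50 and RLP23 did not pass there, at adjusted p from 0.0774 to 0.355. ICS1, not called between pad4 and Col-0, had 83.8, 59.8 and 89 CPM in aig2abc but 11.3, 14.2 and 25 CPM in aig2abc pad4, with a log2 change of -2.24 (adjusted p = 0.0016) and a difference between backgrounds of -1.53 (adjusted p = 0.045). That difference did not pass without any one of 9 of the 12 libraries, at adjusted p from 0.0653 to 0.142, or with a fold minimum of 2. With the covariate the ICS1 difference was -0.43 (adjusted p = 0.725). Its log2 change in the aig2abc background was then -1.33 and passed (adjusted p = 0.0188). The aig2abc libraries were the shallowest, and the number of genes with a difference past the threshold, 2227 in all (14.8%), was 449 without pad4 replicate 3, 946 without Col-0 replicate 1 and 1075 without pad4 replicate 2. It was 4588 without aig2abc pad4 replicate 3, 429 to 729 without any one of the other 5 libraries of the aig2abc background and 86 with the covariate.

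**Figure D4:**
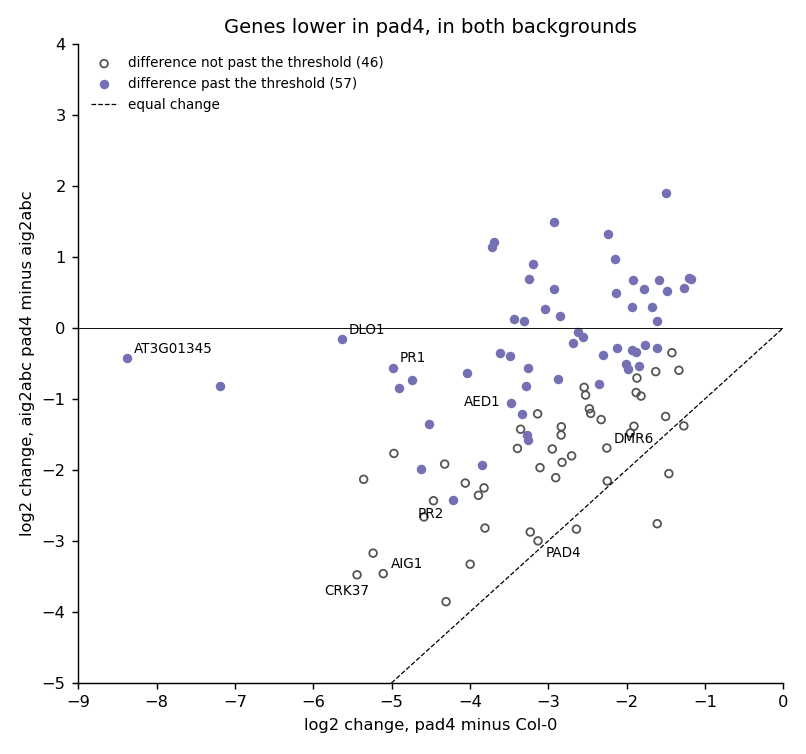
Log2 change on loss of PAD4 in the AIG2 wild type (horizontal axis) and in aig2abc (vertical axis) for the 103 genes lower in pad4, with the 57 genes whose 2 changes differed in purple, the other 46 as open circles and a dashed line at equal change. PAD4 lies near the line, and PR1, DLO1 and AT3G01345 lie far above it.

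The lowered genes AT3G01345 and AT3G42658.1 were low in every mutant, whether or not it lacked PAD4. AT3G01345, of unknown function, had 112, 109 and 82.9 CPM in Col-0. In pad4 it had 0.573, 0.115 and 0.117 CPM, in aig2abc 0.371, 3.86 and 0.328 CPM and in aig2abc pad4 0.192, 0.452 and 0.987 CPM, so no mutant library came near a Col-0 library. It fell by 8.38 ± 0.53 on the log2 scale between Col-0 and pad4 (adjusted p = 1.57e-07), the deepest fall of all, and by 0.43 between aig2abc and aig2abc pad4 (adjusted p = 0.77). AT3G42658.1, whose level and identity are given as the table has them, had 46, 92.8 and 59.6 CPM in Col-0 and 8.89, 9.08 and 5.97 CPM in pad4, and at most 2.22 CPM in aig2abc. These were the 2 of the 103 genes that stayed under 0.25 of the lowest Col-0 value in every library of aig2abc and of aig2abc pad4. AT2G05914, annotated in RefSeq only as another kind of RNA, had 3.22, 12.8 and 8.08 CPM in Col-0. Its levels were 0.191, 0.345 and 0.468 CPM in pad4 and 1.48, 1.93 and 1.64 CPM in aig2abc. In aig2abc AT2G05914 was thus below every Col-0 library but above every pad4 library, and it did not meet the bound of 0.25. At AT3G01345 and AT3G42658.1 the Col-0 libraries were high and those of the 3 mutant genotypes low. At these genes a difference tied to PAD4 and one tied to the Col-0 plants used cannot be told apart.

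**Figure D5:**
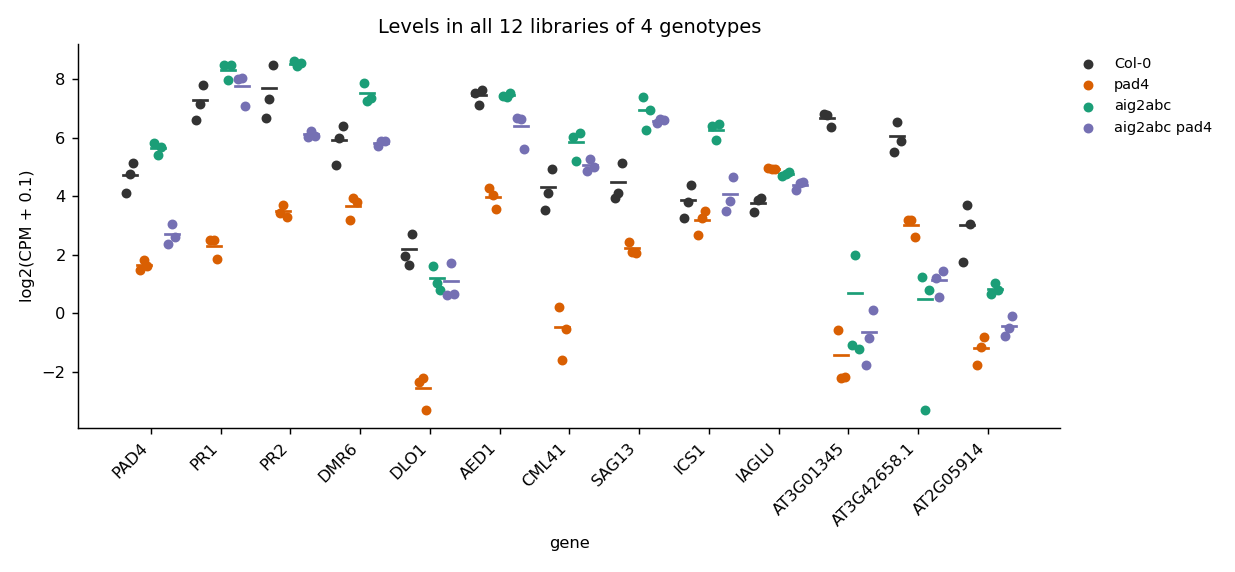
Expression of 13 genes in each of the 12 libraries as log2(CPM + 0.1), coloured by genotype, with a bar at the mean of 3 libraries. PR1 is low in pad4 alone, PAD4 is low in both genotypes that lack it, and AT3G01345 is high in Col-0 alone.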

How the data were processed

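The authors deposited whole-number read counts, 1 row per gene and 1 column per library, which the column values show to be unscaled. STAR, edgeR and the build TAIR10 are named in the submitters' processing notes; for versions, annotation, strand setting and counting rule nothing is given in the sources used here, so overlapping, antisense and near-identical genes are uncertain.

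Libraries were grouped by their labels. The third pad4 column carries number 3 while the pad4 titles carry 1, 2 and 4, so that library was placed by genotype alone. No pair of replicates agreed within counting noise (chi-square per gene from 3.39 to 57.7), so each library counts once.

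Genes passing filterByExpr by group were scaled by TMM and tested in edgeR 4.0.16 (R 4.3.3) by the two-sided robust quasi-likelihood test, with 1 mean per genotype and all 12 libraries sharing the estimate of spread. Benjamini-Hochberg adjustment ran over all tested genes, and calls needed an adjusted p under 0.05 at any fold. Biological variation was 28.7% (edgeR's common coefficient). As a floor, 3 counts over a group equal 0.12 CPM (Col-0) or 0.108 CPM (pad4), and floors and intervals cover counting error only. In simulated data with these means and library sizes, the test found 83 of 100 genes given a 4-fold change but 9 of 100 given a 2-fold change, with 6 false calls among 14717 genes, so a change near 2-fold would mostly be missed.

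Same-numbered Col-0 and pad4 columns deviated together from their group means (r across genes 0.515, 0.133 and 0.405 for numbers 1, 2 and 3). Col-0 replicate 2, however, deviated more with pad4 replicate 3 (r = 0.194) than with pad4 replicate 2. By this measure the column numbers pair the libraries for numbers 1 and 3 but not clearly for 2, and no label says what they share. With the replicate block by column number, 132 genes were lower and 8 higher, 103 of the 132 shared with the fit without the block. In that fit no other call among the named genes changed. Alternatives were other size factors, DESeq2 1.42.0, limma-voom (limma 3.58.1), other count filters, a fold minimum, fewer libraries, replicate blocks, a covariate and leaving out each Col-0 and pad4 library. Leaving out each of the other 6 libraries, for counts of genes and for the aig2abc background, was added after the data were seen, as were all alternatives for aig2abc pad4 against aig2abc.

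The members and the 22 gene lists (364 genes) were chosen with earlier results of these data known. Named genes were all members of the lists on the EDS1-PAD4 node, salicylic acid synthesis and output, N-hydroxypipecolic acid and AIG2, up to 4 called members per direction of each other list or else the 2 with the smallest p. To these were added, in each direction, the 12 called genes that changed most at a mean log2 CPM of at least 1 with no overlap. Names, products and promoters came from RefSeq, TAIR10.1, which matched 28932 of 33331 identifiers by gene ID. Other genes named are said to be chosen after their values were seen.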

Additional observations from a re-analysis of the deposited data

Results flagged for a closer look

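For 20 of the named genes called between pad4 and Col-0, the effect of losing PAD4 differed between the AIG2 wild type and aig2abc by edgeR's test of the difference itself (adjusted p under 0.05). The values below are the log2 change in aig2abc minus that in the wild type, and a positive value means a smaller fall, or none, in aig2abc.

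Among salicylic acid genes the differences were 4.43 for PR1, 1.78 for PR2, 2.69 for PR5, 3.40 for PNP-A, 1.62 for BG3, 2.42 for GRXS13, 2.22 for NIMIN2 and 5.48 for DLO1. AED1 differed by 2.42, the kinase gene CRK7 by 4.00 and the camalexin list's GSTU4 by 1.70. The senescence genes SAG13, SAG14 and SAG21 differed by 1.93, 2.26 and 1.96. In aig2abc itself the log2 changes of these 3 genes on loss of PAD4 were -0.38, 0.67 and 0.29, and none passed the test.

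Among the largest changes, AT3G01345 differed by 7.95, AT2G44240 by 6.37, CML41 by 4.05, AT2G05914 by 3.17 and AT3G15536 by 2.64. As described above, AT3G01345 was already low in aig2abc, and AT2G05914 lay there between its Col-0 and pad4 levels. IAGLU, the gene that rose in pad4, differed by -1.58, with 27.2 ± 1.31 CPM in aig2abc and 20.7 ± 1.93 CPM in aig2abc pad4.

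The aig2abc libraries were the shallowest, at 584342 to 3005199 counts, and the part of depth in these differences was not tested. They also lay outside the range of the other libraries on the main axis of replicate differences. A fit with that axis as a covariate therefore cannot separate it from genotype. With the score of the main axis of replicate differences as a covariate, 12 of the 20 still passed, and with a fold minimum of 2, 5 did. Without pad4 replicate 3, 14 passed, without pad4 replicate 2, 15, and without any one of the aig2abc and aig2abc pad4 libraries, 13 to 20. All 20 kept their direction under the alternatives that gave a value.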

How the results depend on the processing

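Of the 103 lowered genes, all that passed the filter of an alternative (95 in the fits of only the 6 libraries, 101 in those of 9 and 103 in the rest) stayed below 0 in it. For genes lower, the counts were 56 with a fold minimum of 2, 68 with the replicate block by title number, 217 with the replicate-axis covariate, and, in fits added after the data were seen, 161 with the block by column number in 9 libraries and 232 in only the 6. Genes higher were 9 with DESeq2, 2 with limma-voom, 6 with no filter, 0 with the fold minimum, 0 with only the 6 libraries, 8 with the block by column number, 3 with the block by title number, 23 with the covariate, and 15 and 74 in the added block fits of 9 and 6 libraries. In all, DESeq2 called 160 genes, the fold minimum 56, the covariate 240 and those added blocks 176 and 306; apart from 67 without pad4 replicate 3, the other settings gave totals within 1.5 times the main count. The cause of these shifts was not tested.

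Leaving out 1 of the 12 libraries gave 66 to 126 lower, 0 to 6 higher and 67 to 132 in total. For the 6 Col-0 and pad4 libraries these were 66 to 106, 0 to 1 and 67 to 106. Those fits gave 5 to 7 salicylic acid output genes and 4 to 5 cysteine-rich kinases. With only the 6 Col-0 and pad4 libraries, 3 kinases passed and CRK37 missed the count filter. For the difference between backgrounds, leaving out 1 of the 12 libraries gave 429 to 4588 genes, a fold minimum 11, the block by column number 3662 and the covariate 86. For aig2abc pad4 against aig2abc, leaving out 1 of the 12 libraries gave 455 to 2709 lower and 921 to 2794 higher; the fold minimum gave 43 and 47, the covariate 128 and 197, and limma-voom 1091 higher.

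No called gene changed sign. Among genes not called, AT3G48080 went to -0.0049 and CAMTA3 to 0.21 with the covariate, and PAL4 to -0.24 with the block by title number. Over the fits without 1 Col-0 or pad4 library, EDS1 ranged from -0.83 to 0.065, AT3G48080 from -0.54 to 0.98, ADR1-L2 from -0.997 to 0.016, AT5G66900 from -0.077 to 0.34, AT5G66910 from -0.57 to 0.13, EPS1 from -0.40 to 0.11, CAMTA3 from -0.45 to 0.49 and PAL4 from -0.35 to 0.50. SARD1, ICS1, AT5G52810, UGT76B1, BIP3, CRT3, RPP4 and PR4 passed in at least 1 alternative. In the simulated data 9 of 100 changes of 2-fold were found, so at these depths and with 3 libraries a group most changes of that size would not be called.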
